A study of Mus musculus with 32 samples.

Results

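The neuromuscular junction is held together by a small set of proteins, and the muscle transcripts of 8 of them are described here. They are Musk, Lrp4, Dok7, Rapsn, Colq, Ache, Lynx1 and Ncam1, chosen by name for their roles at the synapse. The choice was made with earlier results of these data known, so counts of calls among them are descriptive. They are 8 of the 55487 gene identifiers in the count table. All 8 had counts in each of the 32 libraries, from 4162 counts in all for Lrp4 to 29191 for Lynx1. All 8 passed the filter on low counts, which left 14955 genes to test.

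The samples were gastrocnemius muscles of young male mice, a fast calf muscle, taken 7 or 28 days after surgery. Sham mice were given vehicle, and mice with a complete spinal cord injury (SCI) were given either vehicle or boldine, an alkaloid that blocks connexin and pannexin hemichannels. Each day has 4 sham, 6 SCI vehicle and 6 SCI boldine libraries, with totals between 9935424 and 14132960 counts. The questions the design poses are what the injury does to muscle transcripts and what boldine adds to it. The sources used here do not give the strain, the level of the lesion, the dose of boldine or the number of animals per sample. The p-values therefore measure the spread between these samples.

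At the junction, the nerve secretes agrin, which binds LRP4 on the muscle fibre and activates the receptor tyrosine kinase MuSK. DOK7 docks on MuSK from inside the fibre and is needed for its activity, and rapsyn then ties acetylcholine receptors into the dense cluster beneath the nerve ending. Acetylcholinesterase, fixed in the synaptic cleft by the collagen tail ColQ, ends each signal. In innervated adult muscle, several of these genes are read mainly by the few nuclei under the synapse, and loss of nerve-evoked activity lets Musk and Ncam1 be read along the whole fibre.

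Some libraries stand apart within day 28, and this bears on the results for that day. Transcripts of Hipk2, a nuclear kinase, lay between 4.98 and 21.8 CPM (counts scaled to a common library size) in the 4 sham libraries and in SCI vehicle libraries 1 to 4 of day 28. They lay between 47.0 and 119 CPM in the other 24 libraries, which include SCI vehicle libraries 5 and 6 and the 6 SCI boldine libraries of that day. The labels name no batch that matches this division, so day-28 tests of injury against sham are also given among the low-Hipk2 libraries, and those of boldine against vehicle among the high-Hipk2 libraries. The sixth SCI boldine library of day 28 has a boldine title and a sample code from the run of vehicle codes, and was grouped by its title. In bulk muscle, fewer cells of a type and less RNA per cell cannot be told apart. Markers of muscle fibres were abundant in every library, and the 9 motor axon genes had summed levels of at most 1.9 CPM, none of them high enough to test. Summed levels of 6 slow-fibre genes were 531.5 to 1658 CPM in sham and 38.2 to 77.7 CPM in SCI vehicle at day 28, with all 6 called lower at both days, and their part in the results for the 8 genes was not tested. Sham library 2 of day 7 stood apart, with 453 CPM over 9 Schwann cell genes against 55.7 to 125 CPM in the other 3 shams, and 194 CPM over the slow-fibre genes against 979 to 1443 CPM. All 8 genes kept their day-7 calls without it.

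Levels below are CPM, scaled with edgeR's trimmed mean method (TMM) and given as mean ± SD. Compared per kilobase of exon, the sham muscles of day 7 held most of Lynx1, at 36.3 ± 3.03 CPM per kb (n = 4), and Rapsn, at 14.8 ± 1.07. Ache followed at 8.61 ± 1.60, Musk at 5.70 ± 1.33 and Dok7 at 4.01 ± 0.563. Colq, Lrp4 and Ncam1 were the lowest, at 2.38 ± 0.466, 1.25 ± 0.263 and 0.813 ± 0.162 CPM per kb. After injury the order differed. In SCI vehicle muscle of day 7 Rapsn led at 22.9 ± 4.58 CPM per kb (n = 6), Musk and Colq stood at 14.4 ± 1.65 and 12.1 ± 8.06, and Lynx1 stood at 2.87 ± 0.897.

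**Figure D1:**
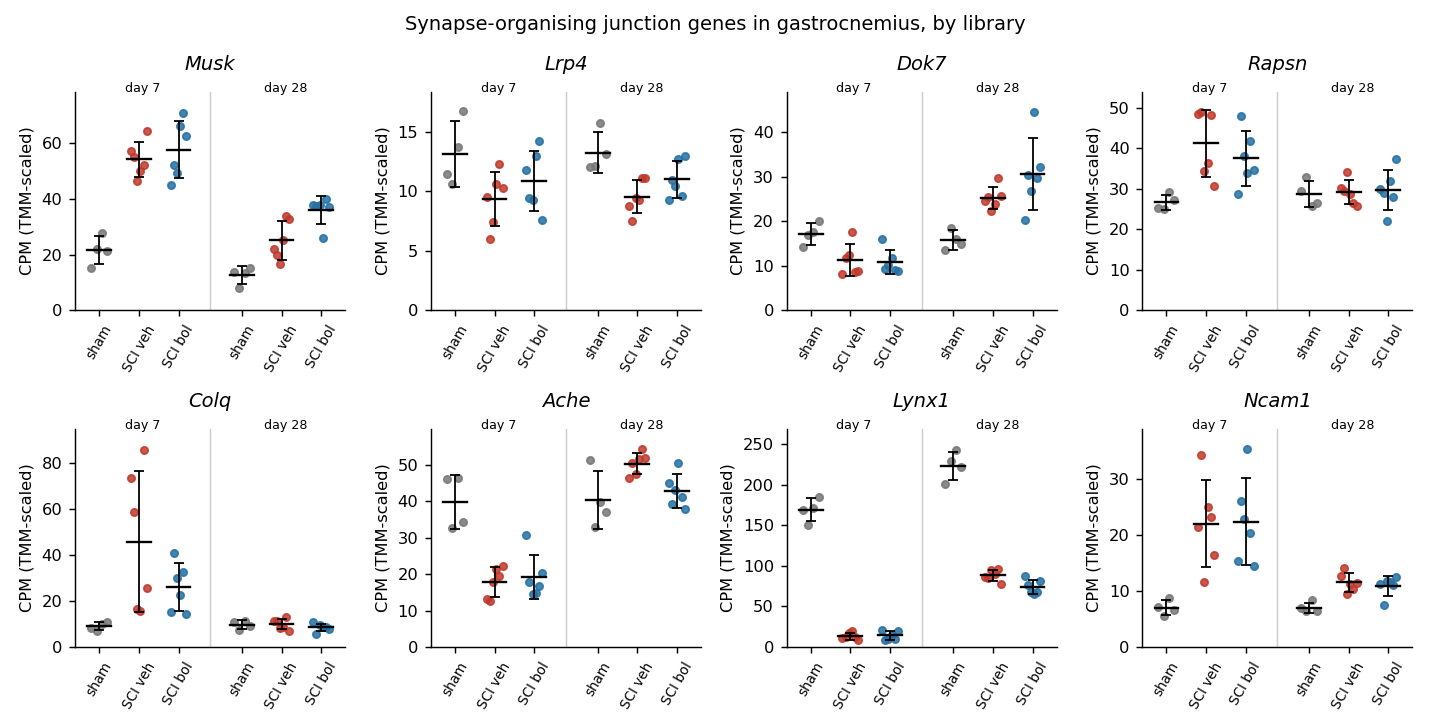
Level of each gene in CPM (vertical axis, linear, from 0) in the 32 libraries, by group along the horizontal axis with day 7 on the left and day 28 on the right of each panel; points are libraries and bars are the mean and SD. Lynx1 lies between 8.71 and 20.5 CPM in the 12 injured muscles of day 7 and between 150.6 and 184.9 CPM in the 4 sham muscles of that day.

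All 8 genes differed between SCI vehicle and sham muscle at day 7, 4 of them higher and 4 lower. Calls rest on the quasi-likelihood test of edgeR at an adjusted p below 0.05, and 44.6% of all genes tested were called in this comparison, 21.5% higher and 23.1% lower. Musk, Rapsn, Colq and Ncam1 rose, and Lrp4, Dok7, Ache and Lynx1 fell. At day 28, when 8.93% of all genes were called, 4.05% higher and 4.88% lower, 3 of the 8 genes were called: Musk and Dok7 rose, and Lynx1 fell. The calls for the smaller falls at day 7 depend on the scaling. With TMM 3218 genes of the table were called higher and 3451 lower at that day. When libraries were scaled by their totals alone, 7107 were higher and 1362 lower, the median gene moved by 0.37 on the log2 scale, and Lrp4 and Dok7 lost their calls.

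**Figure D2:**
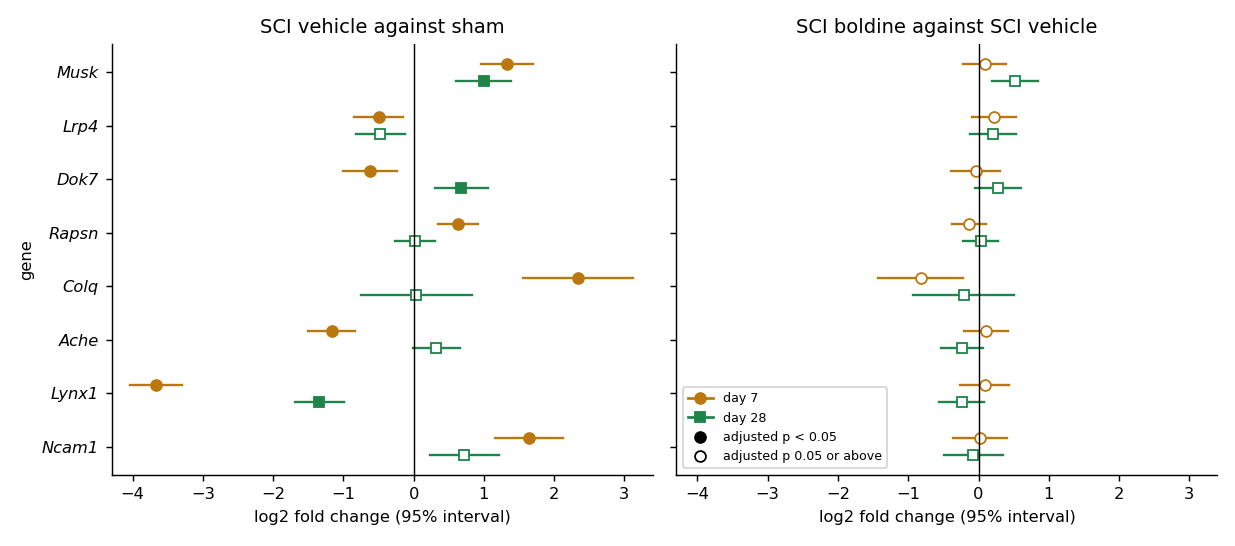
Log2 fold change of each gene (horizontal axis, with 95% intervals) in SCI vehicle against sham on the left and SCI boldine against SCI vehicle on the right; circles are day 7, squares are day 28, and filled symbols passed an adjusted p of 0.05. On the left 8 genes are filled at day 7 and 3 at day 28, and on the right none is.

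Musk encodes the receptor tyrosine kinase at the centre of the junction and lies at chr4:58285960-58374303 of mm10, on the plus strand. In the sham libraries of day 7 it stood at 15.3, 21.8, 27.6 and 21.4 CPM. In SCI vehicle it ran from 46.5 CPM over a median of 53.6 to 64.4, so that the groups did not overlap. The mean was 252% of sham, a log2 fold change of 1.33 ± 0.18 (SE) with an adjusted p of 4.7e-07. At day 28 the sham libraries held 13.7, 7.83, 13.6 and 15.3 CPM. The SCI vehicle libraries of day 28 ran from 16.5 over a median of 23.7 to 33.9 CPM, again with no overlap, at 199% of sham (log2 0.99 ± 0.19, adjusted p 0.00082). SCI vehicle libraries 1 to 4, which share the low Hipk2 level with the shams, held 16.5 to 25.2 CPM of Musk, and libraries 5 and 6 held 33.9 and 32.9 CPM. Among low-Hipk2 libraries alone Musk was higher by 0.74 ± 0.19 on the log2 scale, with an adjusted p of 0.013.

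The sequence before the start of Musk is shown with that of Dok7, because products of both genes form 1 complex and their transcripts went opposite ways at day 7. Each run is the 250 bases before a RefSeq transcript start (GRCm38.p6, plus strand, chr4:58285712-58285961 and chr5:35056516-35056765), with E-boxes in capitals. The RefSeq table held windows for 3 of the 8 genes, Musk, Dok7 and Ache. Dok7 has 2, and the one that starts first is shown, while the other, at chr5:35056822-35057071, holds no E-box. The last 2 bases of the Musk window lie in an annotated Musk exon. An E-box, searched here as CANNTG on both strands, is the motif bound by basic helix-loop-helix factors such as myogenin.
Musk: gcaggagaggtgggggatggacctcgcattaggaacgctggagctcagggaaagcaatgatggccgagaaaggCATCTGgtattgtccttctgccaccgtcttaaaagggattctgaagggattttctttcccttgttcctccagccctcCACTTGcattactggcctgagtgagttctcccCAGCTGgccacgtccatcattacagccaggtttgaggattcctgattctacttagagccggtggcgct
Dok7: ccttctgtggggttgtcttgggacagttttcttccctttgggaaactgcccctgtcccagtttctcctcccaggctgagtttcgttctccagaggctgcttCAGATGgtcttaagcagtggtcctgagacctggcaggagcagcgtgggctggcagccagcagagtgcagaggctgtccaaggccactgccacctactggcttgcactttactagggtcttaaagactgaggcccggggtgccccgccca
The Musk window holds 3 E-boxes, whose first bases lie 177, 100 and 68 bases before the start, and the Dok7 window shown holds 1, at 149 bases. Of 32851 RefSeq windows of this length, 66.2% hold a CANNTG and 13% hold a CAGCTG, the form nearest to the start of Musk. The letters CCGGAA, the core of the N-box that ETS factors bind before synaptic genes, are in neither window and in 12% of all windows. These matches describe the letters only.

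Lrp4, the agrin receptor and partner of MuSK at chr2:91457511-91513779, plus strand, moved less. Its sham libraries of day 7 held 11.5, 10.6, 13.8 and 16.8 CPM, and SCI vehicle ran from 6.01 over 9.92 to 12.3 CPM. The groups overlapped, with 5 of 6 injured libraries below the lowest sham value. The log2 fold change was -0.50 ± 0.17 with an adjusted p of 0.018, and the call was lost without sham library 4 (adjusted p 0.13), without SCI vehicle library 2 (0.067) or without SCI vehicle library 3 (0.053). With library totals as the scaling the day-7 value of Lrp4 was -0.11 (adjusted p 0.64). At day 28 the sham libraries held 12.04, 12.14, 15.7 and 13.1 CPM, and SCI vehicle ran from 7.55 over 9.36 to 11.2 CPM, below each sham library. That difference, -0.47 ± 0.17, missed the threshold with an adjusted p of 0.083, and passed it when libraries were scaled by totals (-0.57, adjusted p 0.042). Among the low-Hipk2 libraries it was -0.60 ± 0.19 with an adjusted p of 0.058.

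Dok7, the cytoplasmic activator of MuSK at chr5:35056766-35087839, plus strand, turned direction between the days. At day 7 the sham libraries held 14.2, 16.8, 17.5 and 20.1 CPM and SCI vehicle ran from 8.11 over 10.2 to 17.6 CPM, with 5 of 6 below each sham library. The log2 fold change was -0.63 ± 0.19 (adjusted p 0.0070), and -0.25 (adjusted p 0.20) when libraries were scaled by totals. At day 28 the sham libraries held 13.5, 18.6, 16.1 and 14.9 CPM and SCI vehicle ran from 22.4 over 25.0 to 29.8 CPM. These groups did not overlap, and the rise was 0.68 ± 0.19 (adjusted p 0.018), at 160% of sham. Among the low-Hipk2 libraries it was 0.61 ± 0.21 with an adjusted p of 0.073. The call was also lost without sham library 1 of day 28 (adjusted p 0.072) or without sham library 4 (0.053).

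Ratios of transcripts within a library do not depend on the scaling between libraries, and 12 such comparisons were tested by exact permutation, two-sided. The log2 ratio of Musk to Dok7 at day 7 was 0.30 ± 0.26 in sham (n = 4) and 2.27 ± 0.52 in SCI vehicle (n = 6). The groups did not overlap, and the exact p of 0.00952, the smallest that 4 against 6 can give, was 0.0286 after adjustment over the 12. At day 28 this ratio was -0.34 ± 0.58 in sham and -0.05 ± 0.31 in SCI vehicle, with an adjusted exact p of 0.52. The ratio of Musk to Lrp4 was higher in injured muscle by 1.82 at day 7 and by 1.42 at day 28, each without overlap and each with an adjusted exact p of 0.0286. With 1 sham library left out, 3 against 6 could not pass the adjusted threshold (0.0714 for Musk to Dok7 at day 7), although the groups still did not overlap. Among the low-Hipk2 libraries of day 28 the Musk to Lrp4 ratio ran from -0.60 to 0.22 in sham and from 0.77 to 1.40 in SCI vehicle. 

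**Figure D3:**
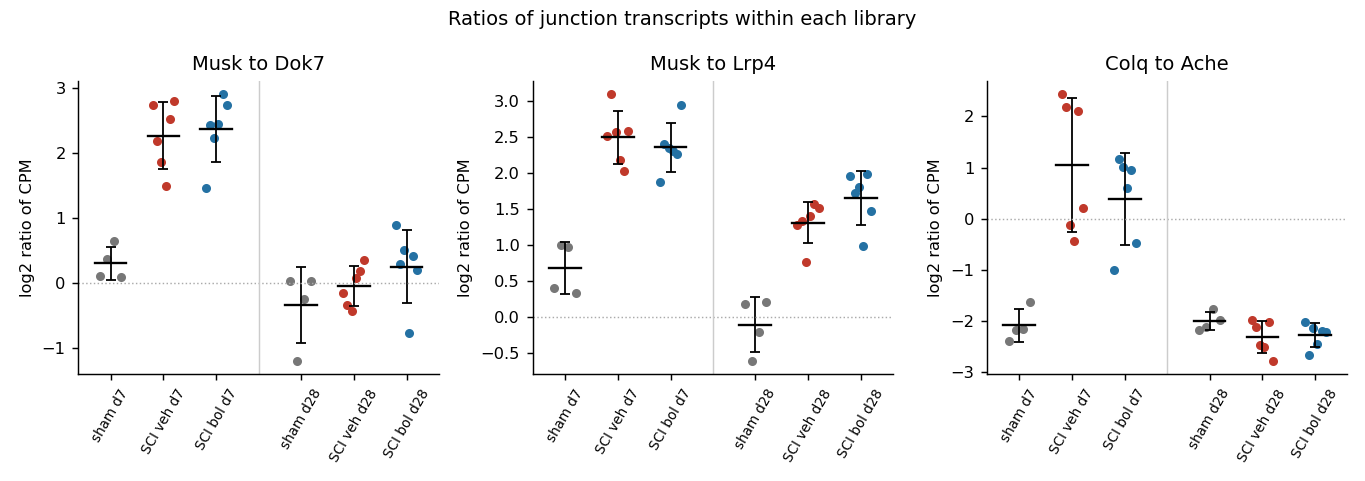
Log2 ratios of CPM within each library (vertical axis) for Musk to Dok7, Musk to Lrp4 and Colq to Ache, by group along the horizontal axis; points are libraries and bars are the mean and SD. The Musk to Dok7 ratio of SCI vehicle is 2.27 ± 0.52 at day 7 and -0.05 ± 0.31 at day 28.

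Rapsn, the scaffold that clusters acetylcholine receptors, lies at chr2:91035620-91045729 on the plus strand. Its sham libraries of day 7 held 25.2, 25.0, 29.1 and 27.2 CPM, and SCI vehicle ran from 30.8 over 42.3 to 49.0 CPM. The groups did not overlap, and the rise was 0.63 ± 0.14 on the log2 scale (adjusted p 0.00038), at 155% of sham. At day 28 Rapsn stood at 28.7 ± 3.20 CPM in sham (n = 4) and 29.1 ± 2.98 in SCI vehicle (n = 6), and the groups overlapped. The day-28 difference was 0.02, with a 95% interval from -0.26 to 0.30, and it was 0.09 ± 0.15 among the low-Hipk2 libraries.

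Colq encodes the collagen tail that anchors acetylcholinesterase and lies at chr14:31523082-31591343 on the minus strand. It stood at 8.39, 6.85, 10.1 and 10.8 CPM in the sham libraries of day 7. The 6 SCI vehicle libraries were all higher and lay far apart from each other. Libraries 1, 2 and 5 held 73.3, 58.6 and 85.6 CPM, and libraries 3, 4 and 6 held 16.4, 15.5 and 25.5 CPM. The mean was 507% of sham (log2 2.34 ± 0.38, adjusted p 7.6e-06), and the value lay between 2.09 and 2.54 as each library was left out. The same libraries 1, 2 and 5 held the most Rapsn, at 48.5, 49.0 and 48.3 CPM, against 30.8 to 36.4 CPM in the other 3. They also had the lowest summed level of 8 muscle fibre genes, at 70982, 63925 and 71567 CPM, against 105312 to 132128 CPM in libraries 3, 4 and 6 and 162552 to 214264 CPM in sham. Of these 8 fibre genes 7 were called lower at day 7, and their part in the Colq and Rapsn results was not tested. By day 28 Colq was back among the sham values: 9.68 ± 1.93 CPM in sham and 9.95 ± 2.30 in SCI vehicle, a log2 difference of 0.04 with a 95% interval from -0.75 to 0.83 (0.03 ± 0.43 among the low-Hipk2 libraries).

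**Figure D4:**
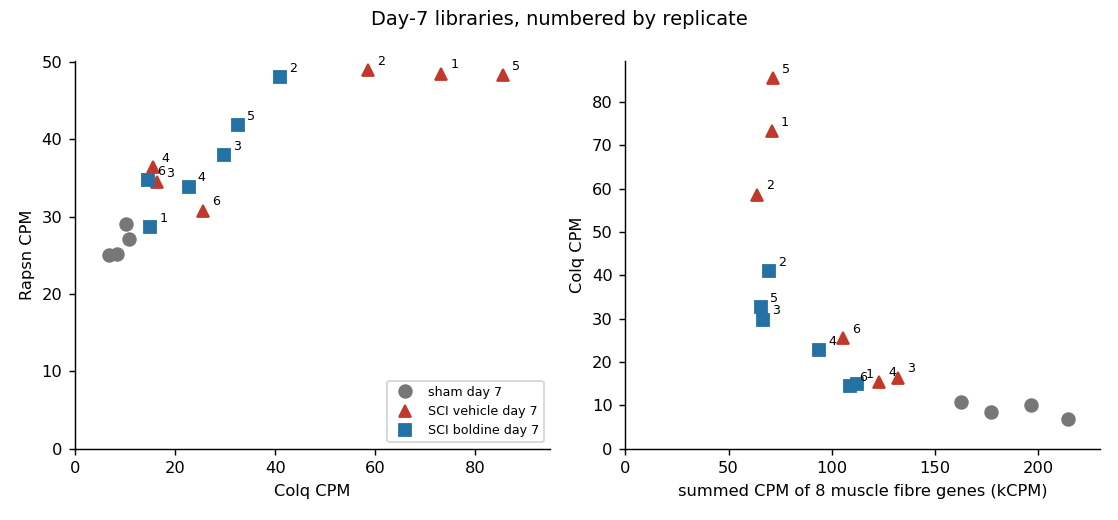
Day-7 libraries, numbered by replicate where injured: Rapsn against Colq in CPM (left), and Colq in CPM against the summed CPM of 8 muscle fibre genes on an axis of kCPM (right). SCI vehicle libraries 1, 2 and 5 lie at 58.6 CPM of Colq or more, and the 4 sham libraries at 10.8 CPM or less.

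Ache, the esterase that clears acetylcholine, lies at chr5:137287519-137294466 on the plus strand and went the other way from its anchor at day 7. Sham libraries held 46.0, 32.6, 46.4 and 34.2 CPM, and SCI vehicle ran from 12.6 over 18.7 to 22.1 CPM with no overlap. The mean was 44.7% of sham (log2 -1.17 ± 0.17, adjusted p 7.4e-07), and the fall was called with either scaling (-0.79 with library totals). The log2 ratio of Colq to Ache was -2.08 ± 0.33 in sham (n = 4) and 1.06 ± 1.31 in SCI vehicle (n = 6), a difference of 3.14 without overlap (adjusted exact p 0.0286). At day 28 the Ache level was 40.3 ± 7.92 CPM in sham and 50.3 ± 2.97 CPM in SCI vehicle. The sham libraries, at 51.3, 32.8, 39.9 and 37.1 CPM, overlapped with the injured range of 46.4 to 54.4 CPM, and the difference of 0.32 ± 0.16 had an adjusted p of 0.24 (0.28 ± 0.18 among the low-Hipk2 libraries, adjusted p 0.42). The Colq to Ache ratio did not pass the test at day 28, with a difference of -0.30 and an adjusted exact p of 0.27.

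Lynx1 encodes a membrane-anchored three-finger protein, known from mouse brain as a brake on nicotinic acetylcholine receptors, and lies at chr15:74747852-74753046 on the minus strand. It showed the largest fall of the 8 genes. Sham libraries of day 7 held 169.6, 150.6, 171.6 and 184.9 CPM, and SCI vehicle ran from 8.93 over 11.8 to 20.2 CPM. The mean was 7.92% of sham, a log2 fold change of -3.67 ± 0.18 (-3.30 with library totals). Its adjusted p of 9.3e-16 was the lowest of the 14955 genes in that comparison. At day 28 the sham libraries held 200.8, 229.2, 242.6 and 222.2 CPM and SCI vehicle ran from 77.6 over 88.0 to 96.5 CPM. The mean was 39.4% of sham, with a log2 fold change of -1.34 ± 0.17 and an adjusted p of 2.3e-06, and the value among the low-Hipk2 libraries was nearly the same at -1.33 (adjusted p 5.7e-05). The level at day 28 thus lay between that of injured muscle at day 7 and that of sham, without overlap with either.

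Ncam1, a cell adhesion molecule of nerve and muscle at chr9:49502136-49798925 on the minus strand, rose at day 7. Sham libraries held 7.22, 5.48, 8.85 and 6.63 CPM, and SCI vehicle ran from 11.7 over 22.4 to 34.4 CPM, at 313% of sham (log2 1.64 ± 0.24, adjusted p 1.2e-06). Satellite cells, the stem cells of muscle, also carry NCAM1 in human. The summed level of 7 satellite cell genes was 38.3 to 46.2 CPM in sham and 55.9 to 69.6 CPM in SCI vehicle at day 7. Of the 6 of them that could be tested 2 rose, Cdh15 and Myf5, and 2 fell, Chodl and Heyl, and their part in the Ncam1 result was not tested. Natural killer cells express NCAM1 in human. The summed level of 7 lymphocyte and natural killer genes at day 7 was 0.955 to 2.02 CPM in sham and 0.194 to 0.955 CPM in SCI vehicle. The part of these cells in the Ncam1 result was not tested. At day 28 Ncam1 stood at 6.90, 6.51, 8.34 and 6.46 CPM in sham and from 9.47 over 11.4 to 14.2 CPM in SCI vehicle. These groups did not overlap, but the difference of 0.72 ± 0.24 had an adjusted p of 0.057. It was called with DESeq2 (adjusted p 0.028), with no filter on low counts (0.048), in a fit of the compared groups alone (0.0020) and without SCI vehicle library 3 (0.049), and was 0.76 ± 0.27 (0.090) among the low-Hipk2 libraries. An antisense gene, Gm11149, shares 417 exon bases with Ncam1, or 4.81% of them, and held 2421 counts against 5883 for Ncam1. The library kit does not mark strand, so reads of this stretch cannot be assigned to either gene. Shared exon bases were 98 for Ache and Gm42456 and 4 for Rapsn and Gm13778, and Gm49387, which shares 199 with Colq, had no count.

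The injury effect at day 28 differed from that at day 7 for 6 of the 8 genes, when 23.9% of all genes tested were called. The difference of the log2 fold changes was 2.33 ± 0.25 for Lynx1 (adjusted p 8.2e-08), 1.49 ± 0.23 for Ache (2.5e-05) and 1.31 ± 0.27 for Dok7 (0.00050). It was -2.30 ± 0.54 for Colq (0.0019), -0.61 ± 0.20 for Rapsn (0.021) and -0.92 ± 0.34 for Ncam1 (0.045). The difference between injured and sham muscle was thus nearer to 0 at day 28 for Lynx1, Ache, Colq, Rapsn and Ncam1, and had turned from lower to higher for Dok7. The Ncam1 call was lost when any of 15 libraries was left out, and the Rapsn call was lost without sham library 2 of day 28 (adjusted p 0.058). With SCI vehicle libraries 5 and 6 of day 28 left out, Ncam1 (adjusted p 0.085) and Rapsn (0.063) were not called and the other 4 were. For Musk the difference between the days was -0.33 ± 0.26 (adjusted p 0.38), and for Lrp4 it was 0.03 ± 0.25. In sham muscle, Lynx1 was higher at day 28 than at day 7 by 0.40 on the log2 scale, without overlap but with an adjusted p of 0.32, and the values of 6 genes lay between -0.12 and 0.11. Musk alone was called: it was lower in sham at day 28 than at day 7 by 0.78 ± 0.21 on the log2 scale (adjusted p 0.043, with 1.89% of all genes called), but the sham libraries of day 28 are all in the low-Hipk2 set and those of day 7 are not, so that day and set cannot be told apart. That call was lost under 6 of the 8 fits that left out 1 sham library.

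Boldine made no called difference to any of the 8 genes when injured muscles were compared with each other by edgeR. At an unadjusted p under 0.05 there was 1 of 8 at each day, Colq at day 7 and Musk at day 28, when 9.59% and 9.56% of all genes passed that threshold at the respective days. DESeq2 and limma voom also called 0 of 8 at each day, and voom with quality weights called Musk at day 28 (adjusted p 0.024). With edgeR the share of all genes called was 0.0334% at day 7 and 0.0201% at day 28. DESeq2 and voom called more genes of the table than edgeR at each day. Voom with quality weights, which called Musk, called many more at day 28, as counted in the closing section. At day 7 the widest gap was for Colq, which stood at 45.8 ± 30.6 CPM with vehicle and 25.9 ± 10.5 CPM with boldine (n = 6 each). The 6 boldine libraries held 15.1, 41.0, 29.8, 22.7, 32.6 and 14.5 CPM and overlapped with the vehicle range of 15.5 to 85.6 CPM. The log2 difference was -0.82 ± 0.30 with an adjusted p of 0.32, and it lay between -1.02 and -0.56 as each library was left out. For the other 7 genes the day-7 differences lay between -0.14 for Rapsn and 0.22 for Lrp4, and the 95% intervals reached no further than -0.39 and 0.54.

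At day 28 the widest gap between boldine and vehicle was for Musk. The boldine libraries held 37.7, 37.3, 37.9, 25.8, 39.8 and 37.0 CPM, and 5 of 6 lay above the highest vehicle library. The log2 difference was 0.52 ± 0.16 with an adjusted p of 0.22, and it was called when SCI vehicle library 5 was left out (adjusted p 0.0498). Within the high-Hipk2 libraries, where 2 vehicle libraries at 33.9 and 32.9 CPM stand beside the 6 boldine libraries, it was 0.10 ± 0.20 (adjusted p 1). Without the sixth boldine library, whose sample code is from the run of vehicle codes, no difference for the 8 genes was called. For the other 7 genes the day-28 differences lay between -0.24 for Lynx1 and 0.28 for Dok7, and within the high-Hipk2 libraries between -0.31 for Ache and 0.19 for Rapsn. The 95% interval for Lynx1 ran from -0.56 to 0.08 and that for Dok7 from -0.05 to 0.60, and the widest, for Colq, from -0.93 to 0.50, so that these data do not show the treatments to be alike. No ratio within a library passed its test between boldine and vehicle, with adjusted exact p from 0.26 to 0.85. Without boldine library 4 of day 28, the one low in Musk, the ratios of Musk to Dok7 (0.51 higher with boldine, adjusted exact p 0.035) and of Musk to Lrp4 (0.48, 0.031) passed it. For Musk to Dok7 the high-Hipk2 vehicle libraries 5 and 6 held 0.18 and 0.36, and the remaining boldine libraries 0.20 to 0.89. For Musk to Lrp4 these values were 1.57 and 1.52, and 1.47 to 1.99. The part of the Hipk2 sets in these 2 ratios was not tested. The effect of boldine had no called difference between the days for any of the 8 genes, of which 0 were at an unadjusted p under 0.05 beside 9.72% of all genes, with 0.00669% of all genes called.

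**Figure D5:**
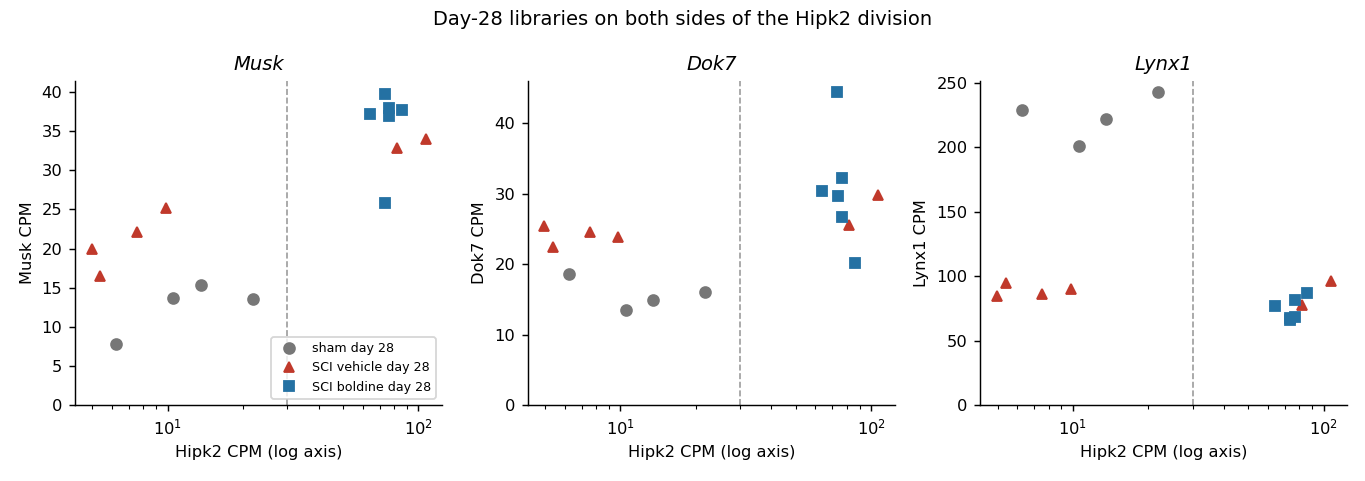
Musk, Dok7 and Lynx1 in CPM (vertical axes, linear) against Hipk2 in CPM (horizontal axis, logarithmic) in the 16 libraries of day 28, by group; the dashed line parts the low-Hipk2 from the high-Hipk2 set. SCI vehicle libraries 5 and 6, on the right, hold 33.9 and 32.9 CPM of Musk, and libraries 1 to 4, on the left, hold 16.5 to 25.2 CPM.

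Against sham, muscles of boldine-treated mice are set beside those of vehicle-treated mice, with the same sham libraries in both comparisons. At day 7, 7 of the 8 genes were called with boldine, when 44.2% of all genes were, 21.7% higher and 22.5% lower. Musk (1.42 ± 0.18), Ncam1 (1.66 ± 0.24), Colq (1.51 ± 0.38) and Rapsn (0.49 ± 0.14) rose. Dok7 (-0.67 ± 0.19), Ache (-1.06 ± 0.16) and Lynx1 (-3.58 ± 0.18) fell. The value for Lrp4 was -0.28 ± 0.17, with an adjusted p of 0.20. At day 28, when 18.1% of all genes were called, 8.79% higher and 9.35% lower, Musk (1.51 ± 0.19) and Dok7 (0.96 ± 0.19) rose and Lynx1 (-1.58 ± 0.17) fell. In this comparison the sham libraries are all in the low-Hipk2 set and the boldine libraries all in the high set. A fit with a term for the sets, which leans on the vehicle libraries that stand in both, called Lynx1 (-1.55, adjusted p 0.0040) and neither Musk (0.84, 0.11) nor Dok7 (0.76, 0.24).

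The other genes of the pathway are described by lists chosen by role, also with earlier results of these data known. Agrn, the nerve-derived ligand that muscle also expresses, is named after its values were seen: it stood at 20.1 ± 1.43 CPM in sham and 16.9 ± 1.13 in SCI vehicle at day 7 (log2 -0.25, adjusted p 0.12). Of 27 signalling partners of agrin, MuSK and rapsyn, 7 were called higher and 9 lower at day 7, with a median log2 fold change of -0.06 beside -0.02 for all genes tested, of which 21.5% were called higher and 23.1% lower. With library totals 13 were higher and 2 lower, which is close to the shares of all genes called each way with that scaling. The partners with the smallest p were Hsp90ab1, a chaperone that keeps rapsyn stable (1.18 ± 0.12), Fzd9, a Wnt receptor (-1.66 ± 0.19), and Ptpn11, a tyrosine phosphatase (-0.44 ± 0.07). The value for Ptpn11 was -0.05 with library totals (adjusted p 0.61). At day 28 3 partners were higher and 2 lower, or 2 and 3 with library totals. With TMM 4.05% of all genes were called higher and 4.88% lower at that day. Fzd9 was still lower (-1.46 ± 0.18), and the Wnt ligand Wnt4 (0.71 ± 0.13) and the kinase Pak1 (0.68 ± 0.18) were higher. Among the low-Hipk2 libraries Fzd9 (-1.59) and Wnt4 (0.76) were called and Pak1 was not (0.61, adjusted p 0.056).

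Of the 5 subunits of the muscle acetylcholine receptor, 4 rose at each day, when 21.5% and 4.05% of all genes were called higher, with medians of 2.05 at day 7 and 1.21 at day 28. Chrna1 rose from 15.1 ± 5.72 CPM in sham to 110.9 ± 41.5 in SCI vehicle at day 7, and from 14.5 ± 3.37 to 32.5 ± 7.87 at day 28. Among the low-Hipk2 libraries of day 28 Chrna1 was higher by 1.11 (adjusted p 0.013) and Chrnb1 by 1.25 (6.1e-06), while Chrnd missed the threshold (1.03, 0.052). Chrnb1 rose from 29.7 ± 1.09 to 106.3 ± 15.2 CPM at day 7. Chrng, the fetal subunit, had no count in the 4 sham libraries of day 28 and 0.371 to 4.47 CPM in SCI vehicle. Chrne, the adult subunit, was the one not called, at 18.7 ± 5.48 CPM in sham and 17.4 ± 6.56 in SCI vehicle at day 7. At day 28 Chrne was higher in SCI vehicle by 0.52 ± 0.20 on the log2 scale without overlap, but missed the threshold (adjusted p 0.093).

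Genes of the synaptic basal lamina and the dystroglycan complex went the other way at day 7. Of 17, 13 were called lower and 1 higher, with a median of -0.76, when 23.1% of all genes were called lower and 21.5% higher. With library totals 8 were lower and 2 higher, and that scaling called fewer genes of the table lower and more higher. Of 5 endothelial genes 3 were also called lower and 1 higher, with summed levels of 136 to 204 CPM in sham and 108 to 137 CPM in SCI vehicle. Of 5 genes of fibro-adipogenic progenitors 4 were called lower, with summed levels of 158 to 299 and 123 to 194 CPM. The part of these cells in the basal lamina values was not tested. Lamb2, the laminin chain concentrated in the synaptic cleft, fell to 65.8 ± 5.40 CPM from 131.7 ± 19.5 in sham (adjusted p 3.5e-10). Dtna, which encodes dystrobrevin of the postsynaptic membrane, fell by 0.82 and Lama4, another laminin chain of the junction, fell by 1.26 on the log2 scale. At day 28 Dtna was higher (0.45 ± 0.10) and Hspg2, the proteoglycan perlecan that holds ColQ in the basal lamina, was lower (-0.53 ± 0.10), and both were called among the low-Hipk2 libraries (0.36 and -0.47). No other gene of this list was called at day 28.

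Of 13 genes that control synaptic or denervation-responsive transcription, 11 could be tested. At day 7 4 rose and 4 fell, when 44.6% of all genes were called with TMM. With library totals, which called more genes of the table higher and fewer lower, 4 rose and 2 fell. Runx1, a factor raised in denervated muscle, went from 2.27 ± 0.316 to 42.6 ± 24.0 CPM, and Hdac4, a deacetylase that represses Dach2 in denervated muscle, went from 45.7 ± 6.00 to 167.1 ± 33.3 CPM. Hdac9 fell by 2.36 on the log2 scale. At day 28 4 genes of this list were called, or 3 with library totals, all higher, among them Myog (2.00 ± 0.813 CPM in sham and 8.86 ± 3.55 in SCI vehicle), the E-box factor myogenin, which was also called among the low-Hipk2 libraries (1.97 on the log2 scale, adjusted p 0.0011). At that day 8.93% of all genes were called with TMM. In the 4 shorter lists the counts at day 7 with TMM stand beside the same 44.6% of all genes. Both tested genes of acetylcholine handling fell, Prima1, the membrane anchor of acetylcholinesterase (-1.46 ± 0.59, adjusted p 0.043), and the related esterase Bche (-0.68 ± 0.28, adjusted p 0.049), and neither was called with library totals. Among 4 three-finger modulators and neuronal receptors Ly6e fell and Chrnb2 rose, and among 5 neural adhesion genes Cdh15 rose and St8sia4 fell. Neither Ly6e nor St8sia4 was called with library totals. Among 5 glycosylation enzymes Gmppb fell, whereas with library totals, which called more genes of the table higher and fewer lower, 3 rose and none fell. In these 4 lists edgeR called nothing at day 28, and at an unadjusted p under 0.05 each held at most 1 gene, when 22.7% of all genes passed. In none of the 8 lists was any gene called between boldine and vehicle. Of the longest list, the 27 signalling partners, 6 were at an unadjusted p under 0.05 at day 7 and 5 at day 28. Of all genes 9.59% and 9.56% passed at those days. Genes of other lists passed that unadjusted threshold of edgeR too at day 7, among them Chrnd (p 0.0036), Lama4 (0.012) and Myog (0.016).

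Genes with the most similar pattern were ranked by Pearson r of log2 CPM over the 32 libraries, among 8950 genes with a mean of at least 5 CPM, as a description. All points share their libraries, scaling and groups. Lynx1 was closest to Mpc2, a subunit of the mitochondrial pyruvate carrier (0.981), Trak1, a mitochondrial transport adaptor (0.979), and Chchd10, a mitochondrial protein (0.979). Ache was closest to Sypl2 (0.951), Ak1 (0.948) and Fam131a (0.948), and Dok7 to Art3 (0.929), Aldh1a1 (0.920) and Car14 (0.911). Musk was closest to the muscle transcription factor Mef2a (0.939), the chromatin remodeller Ep400 (0.928) and Tulp4 (0.925). Ncam1 was closest to Tnfrsf22 (0.938), the receptor subunit Chrna1 (0.937) and Rrad (0.934), and Colq to the lysosomal membrane protein Cd63 (0.952), the nucleoside transporter Slc29a1 (0.951) and Tnip1 (0.947). Rapsn was closest to Tmem255b (0.889), Cox15 (0.880) and Phykpl (0.874). For Lrp4 no gene came above 0.664 (Khdrbs3). Among the 8 genes themselves Ache and Lynx1 went together most closely (0.840), followed by Rapsn and Colq (0.815). Lynx1 most clearly opposed Ncam1 (-0.881) and, nearly equally, Musk (-0.879).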

How the data were processed

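RNA-seq libraries were made from gastrocnemius muscle, from about 20 mg of tissue and 1 µg of RNA with a kit that does not mark strand, per the labels' protocols. The authors deposited whole-number read counts per Ensembl gene identifier. FastQC, Trim Galore, cutadapt, STAR and the mm10 build are named in the submitters' processing notes. Their versions, the counting step with its strand setting and the annotation were not given in the sources used here. Reads of overlapping genes could therefore be split between them.

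Symbols were taken from GENCODE M21 for 55141 identifiers. A further 346, with 0.0256% of counts, had none, 107 were set aside because they share a symbol, and 25611 identifiers had no count. No 2 libraries were identical. Groups came from the titles.

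Counts were fitted in edgeR 4.0.16 (R 4.3.3) with TMM scaling, filterByExpr (minimum count 10, minimum total 15), 1 mean per group over the 32 libraries and the quasi-likelihood test, adjusted by Benjamini-Hochberg over 14955 genes. Standard errors are the log2 fold change divided by the root of F. Ratios within a library used CPM with a pseudocount of 0.5 (SciPy 1.17.1, pandas 2.3.3, Python 3.11.15). On simulated counts, the fit recovered 88% of genes changed by 1 on the log2 scale in SCI vehicle against sham at day 7 (14711 genes fitted) and 94% at day 28 (14717 genes), and 100% of those changed by 2 at either day. Of the unchanged genes 14 were called at day 7 and 8 at day 28. Only 100 genes were changed by each amount, in balanced directions. In the data 44.6% of genes were called at day 7, so these rates do not cover shifts of that extent. The alternatives were library totals and RLE size factors as scaling, DESeq2 1.42.0, limma 3.58.1 (voom, with and without quality weights), no filter or a minimum count of 50, a replicate block, a term for the Hipk2 library sets, fits of the compared groups alone, and each library left out. Fits within a Hipk2 set were chosen after seeing the data.

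The 8 genes and the lists were chosen with earlier results of these data known. All 8 genes are described. From each list the 3 genes with the smallest p in SCI vehicle against sham at each day could be named, and for each of the 8 genes the 3 with the highest Pearson r. Chrne, Agrn, Hipk2 and the satellite cell genes that changed were named outside this rule, after their values were seen.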

Additional observations from a re-analysis of the deposited data

Results flagged for a closer look

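Values were looked at in 48 sets, 1 for each gene in each group, which reuse the same libraries. In 3 of these sets 1 library lay far from the others, which chance alone gives in about 1 set of 20. Musk stood at 25.8 CPM in SCI boldine library 4 of day 28 and at 37.0 to 39.8 CPM in the other 5. Ache stood at 30.6 CPM in SCI boldine library 1 of day 7, against 14.5 to 20.4 CPM in the other 5. Ncam1 stood at 7.47 CPM in SCI boldine library 2 of day 28, against 11.2 to 12.6 CPM in the rest of its group.

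The injury effect differed between the days by the interaction test of edgeR for 6 of the 8 genes. On the log2 scale, day 28 minus day 7, the difference was 2.33 for Lynx1 (adjusted p 8.2e-08), 1.49 for Ache (2.5e-05) and 1.31 for Dok7 (0.00050). It was -2.30 for Colq (0.0019), -0.61 for Rapsn (0.021) and -0.92 for Ncam1 (0.045).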

How the results depend on the processing

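Of 1680 recomputed values for the 8 genes none changed sign while past the threshold, and 78 changed sign between values that both missed it. The calls of Lynx1 and Musk in SCI vehicle against sham held under each alternative run at both days. For that comparison at day 28, a fit of the compared groups alone also called Lrp4 (adjusted p 0.023), Ache (0.044) and Ncam1 (0.00195). The share of all genes called by that fit is not given here, so these added calls have no background beside them. Between boldine and vehicle at day 28, voom with quality weights called 1 gene, Musk. In SCI boldine against sham at day 28, a term for the library sets left 1 called gene, Lynx1, in place of 3. Musk in sham day 28 against day 7 was not called with library totals, voom or the set term (0 genes in each). The causes of these changes were not tested.

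Calls among the 8 genes with 1 library left out are given with those over all genes in brackets. For SCI vehicle against sham they numbered 7 to 8 at day 7 (5929 to 6746) and 2 to 4 at day 28 (831 to 1309). For boldine at day 28 they numbered 0 to 1 against vehicle (0 to 168) and 3 to 4 against sham (2023 to 2605). The difference between the days had 4 to 6 (3141 to 3951), and sham day 28 against day 7 had 0 to 1 (80 to 273). The log2 ratio differences between SCI vehicle and sham then ran from 1.86 to 2.12 for Musk to Dok7 at day 7, from 1.70 to 1.93 and from 1.25 to 1.53 for Musk to Lrp4 at days 7 and 28, and from 2.86 to 3.44 for Colq to Ache at day 7. Between boldine and vehicle at day 28 they ran from 0.18 to 0.51 for Musk to Dok7 and from 0.24 to 0.48 for Musk to Lrp4.

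The labels do not say that the replicate numbers pair the samples. The median correlation of same-numbered deviations lay between -0.041 and 0.083 over the pairs of groups. The highest was 0.264, for SCI vehicle and SCI boldine of day 7, where 2 of 6 pairs lay over 0.1. Correlations over so few pairs cannot decide whether samples were paired. With a replicate block, Lrp4 was called in SCI vehicle against sham at day 28 (adjusted p 0.022) and the Ncam1 difference between the days was not (0.057). Blocked ratio differences were 1.77 for Musk to Dok7 at day 7, 1.91 and 1.30 for Musk to Lrp4 at days 7 and 28, and 3.09 for Colq to Ache at day 7, each with an exact p of 0.125, the smallest that 4 pairs can give.

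Counts over all genes moved by more than 1.5 times in several comparisons. Boldine against vehicle at day 7 gave 5 genes, and 2 with library totals, 99 with DESeq2, 9 with voom, 24 with no filter, 19 with the set term and 0 in the compared groups alone (1012 at an unadjusted p under 0.05). At day 28 it gave 3, and 56 with DESeq2, 22 with voom, 334 with quality weights, 1 with no filter, 9 with a minimum count of 50, and 0 with the block, the set term, the compared groups alone or the high-Hipk2 libraries (1439, 536, 1590 and 517 unadjusted). Boldine against sham at day 28 gave 2713, and 219 with the set term. The injury effect between the days gave 3579, and 6827 with library totals. The boldine effect between the days gave 1, and 37 with DESeq2, 2 with quality weights, and 0 with library totals, the block or the set term (1247, 1427 and 920 unadjusted). Sham day 28 against day 7 gave 283, and 135 with library totals, 481 with DESeq2, 442 with quality weights and 0 with the set term (635 unadjusted). SCI vehicle against sham at day 28 gave 1335, and 831 without sham library 3.

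Lists of like genes depend on the measure: with Spearman in place of Pearson, 0 of the 3 named genes recurred for Lrp4, Colq and Ache, 1 for Dok7, Rapsn and Lynx1, and 2 for Musk and Ncam1. With library totals 0 of 3 recurred for Lynx1, 1 for Lrp4, 3 for Ache and 2 for each of the other 5. At the lowest, a library held 48 counts of Ncam1 and 55 of Colq, the thinnest coverage among the 8 genes.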
